A study of Mus musculus with 6 samples.

Results

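Visual cortex of mice with 1 mutant copy of Mmp9, altered in an untranslated region, was compared with visual cortex of wild-type mice. The comparison held 4 of the 6 libraries of the series, chosen by their genotype label: 2 heterozygous libraries (het, UTRmut/WT, 1 mutant allele) and 2 wild-type libraries (WT, WT/WT, 0 mutant alleles). In each genotype replicate 1 was a female and replicate 2 a male. All mice were of strain B6.CBA/Tar, at postnatal day 28, with no treatment named. The 2 homozygous libraries (UTRmut/UTRmut, below UTRmut, 2 mutant alleles) stayed outside the contrast. They entered the same fit, with its filter, scaling, sex block and estimate of the spread; their levels are given for reference. The labels do not say whether animals were pooled, whether litters were shared or how the WT mice were related to the mutants, so p-values measure the spread between these libraries, which may be partly technical.

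Matrix metalloproteinase 9 (MMP-9) is a secreted zinc protease that cuts extracellular matrix and adhesion proteins around synapses. In neurons its mRNA is found in dendrites, its translation there is regulated, and its activity is checked by the tissue inhibitors of metalloproteinases (TIMPs). It is studied in the visual cortex for its part in the plasticity that follows the loss of input from one eye. Untranslated regions of an mRNA bear on its stability, transport and translation, of which RNA sequencing reads only the level of the transcript.

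Total counts were 9500090 to 11622460 in the 4 libraries. Upper-layer neuron markers (18 of 18) and deep-layer neuron markers (18 of 20) passed the filter on low counts, as did 4 of 12 choroid plexus markers. WT replicate 2 stood apart in 2 ways. The choroid plexus markers summed to 53.5 CPM (counts scaled to library size, trimmed mean of M-values) there against 6.37 in WT replicate 1 and 6.97 and 7.19 in het, 78.5% of it from Ttr, the transthyretin of that epithelium. Without Ttr the sums were 11.5 CPM there, 6.17 in WT replicate 1 and 6.25 and 6.91 in het. Xist, the transcript of the inactive X chromosome, had 268 counts in the WT male against 15 in the het male, and 6911 and 6164 in the WT and het females. WT replicate 1 stood apart in activity-regulated genes, as described with those genes. Read counts differed between the 2 WT libraries by a chi-square of 7.79 per degree of freedom over genes and between the 2 het libraries by 3.52.

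Mmp9 transcript was scarce in both genotypes. Its counts were 4 and 9 (WT) and 9 and 9 (het), or 0.386 and 0.777 CPM in WT against 0.937 and 0.841 in het (0.582 ± 0.277 and 0.889 ± 0.0680, SD, n = 2 each). Both het libraries lay above both WT libraries, and the UTRmut libraries, at 0.747 and 1.39 CPM, spanned the het values. The log2 fold was 0.60 (SE 0.58), short of the threshold (edgeR, Benjamini-Hochberg adjusted p = 1). With so few counts a difference of this size was not detectable at this depth.

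The TIMPs did not pass either. Timp1, as scarce as Mmp9, had 0.386 and 0.777 CPM in WT against 0.937 and 0.560 in het. It was left out by the filter on low counts, and the fit without that filter gave a log2 fold of 0.32 (SE 0.66). Timp2, Timp3 and Timp4 had log2 folds of -0.01 (SE 0.09), 0.15 (SE 0.20) and -0.01 (SE 0.16), and their het and WT libraries overlapped. Their directions turned when single libraries were left out, as the closing section lists. Mmp14, the membrane-bound protease that activates pro-MMP-2, had 5.88 and 5.27 CPM in WT against 9.68 and 10.4 in het. Both het libraries were above both WT libraries and above both UTRmut libraries (5.98 and 7.31). The gene did not pass (log2 fold 0.85, SE 0.22; edgeR, Benjamini-Hochberg adjusted p = 1, over 16 alternatives 0.0314 to 1).

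Across all genes, 3 rose and 0 fell in het against WT. That is 0.0186% of the 16119 genes tested in either direction (0.0186% higher and 0% lower; edgeR quasi-likelihood test with sex as a block, Benjamini-Hochberg adjusted p under 0.05). The 3 were Rn7s1, a copy of the signal recognition particle RNA, and the neighbours Catspere1 and Catspere2. 446 genes (2.77%) had an unadjusted p under 0.05, 220 higher (1.36%) and 226 lower (1.4%), and DESeq2 with Benjamini-Hochberg adjustment also called 3 higher and 0 lower. Het and WT libraries did not overlap for 2165 genes higher in het (13.4%) and 2198 lower (13.6%). The fitted fold was above 1 in either direction on the log2 scale for 153 genes, 88 of them higher. How many genes passed depended on single WT libraries: without WT replicate 1 there were 89 higher and 208 lower, and without WT replicate 2 there were 166 higher and 71 lower, each time with the 3 named genes among them.

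Agreement between the sexes was low across genes, and whether underlying differences were shared could not be decided from it. The fitted folds were small beside their error, with a median absolute log2 fold of 0.10 and a median SE of 0.16. Over the 16119 genes the log2 difference of het minus WT had the same sign in females and males for 47.1%, and the correlation between the sexes across genes was 0.0002 (a description, since genes are not independent and each sex has 1 library a genotype). Rn7s1, Catspere1 and Catspere2 lay in the corner of the plot where both sexes were higher. Tes3-ps lay where both were lower, and Ttr, at 1.27 in females and -6.50 in males, where the sexes were opposite. The places of the genes that passed and of Tes3-ps follow largely from their choice on these same libraries.

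**Figure D1:**
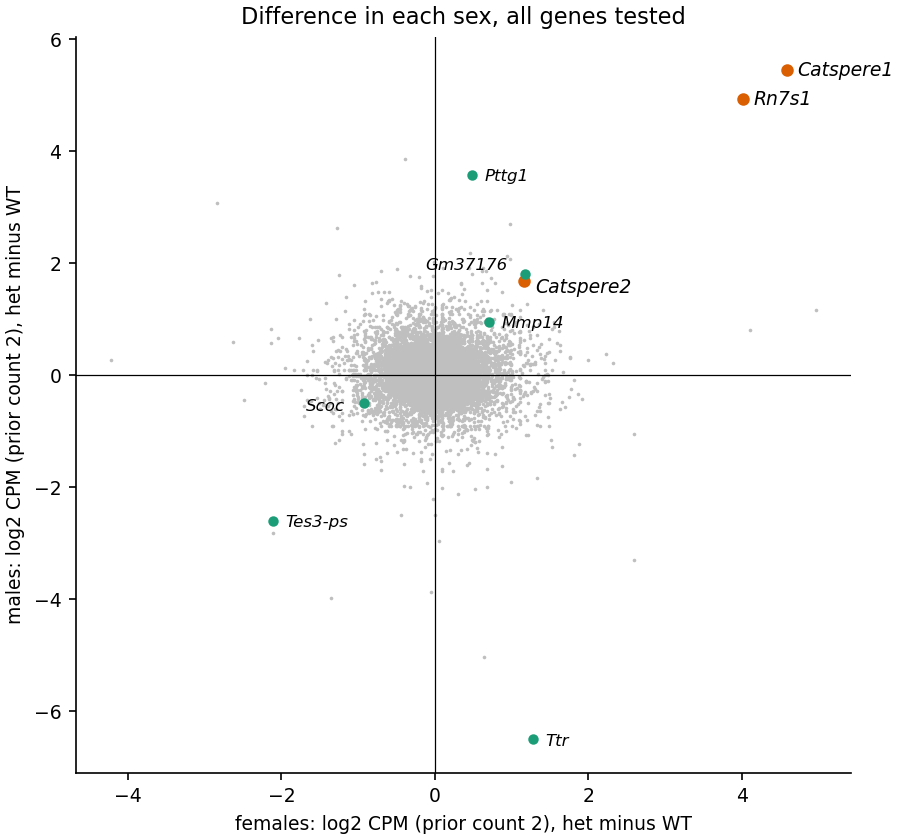
Log2 CPM difference (prior count 2) of het minus WT in females (horizontal axis) and in males (vertical axis) for the 16119 genes tested, 1 point a gene. Orange points are the 3 genes that passed and green points are genes named in the text; the cloud is round, with the same sign in both sexes for 47.1% of genes.

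Rn7s1 and Rn7s2 are copies of the RNA of the signal recognition particle, which halts and docks ribosomes that make secreted proteins. Their sequences are shown because the result for Rn7s1 rests on reads that could also have come from Rn7s2. In GENCODE (GRCm38) Rn7s1 lies on chromosome 12 from 69159295 to 69159594 (plus strand) and Rn7s2 on chromosome 12 from 69361182 to 69361481 (minus strand), each a single annotated RNA of 300 bases. The first 30 bases of each, 5′ to 3′, are:
Rn7s1: gccgggcgcggtggcgcacgcctgtagtcc
Rn7s2: gccgggcgcggtggcgcacgcctgtagtcc
Over all 300 bases the annotated sequences had 0 differences, and 251 of 251 windows of 50 bases of Rn7s1 occurred in Rn7s2.

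Counts of Rn7s1 were 57 and 56 in WT against 880 and 1637 in het, or 5.50 and 4.84 CPM against 91.6 and 153 CPM. The UTRmut libraries had 64 and 72 counts (5.98 and 6.27 CPM), next to WT. It rose 23.3-fold in het (log2 fold 4.54, SE 0.21; edgeR, Benjamini-Hochberg adjusted p = 7.82e-05). The call was lost without a block on only the 4 libraries (adjusted p = 0.102; over 15 alternatives 1.21e-195 to 0.102). Rn7s2, of identical annotated sequence, did not pass, with 53.4 and 25.6 CPM in WT against 33.8 and 36.8 in het (log2 fold -0.10, SE 0.31). Reads inside the 300 bases cannot be told apart between the copies, so the counts of either are uncertain; how the authors placed such reads is not given in the sources used here. Rn7sk, another short structural RNA, which holds back transcription elongation, had 15418 and 15532 CPM in WT against 16784 and 19369 in het (log2 fold 0.22, SE 0.06), and did not pass.

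Catspere1 and Catspere2 are related genes side by side on chromosome 1, of the family of the epsilon subunit of CatSper, the calcium channel of the sperm tail. Catspere1 is annotated as an unprocessed pseudogene (177808550 to 177962233, plus strand) and Catspere2 as a protein-coding gene (177983423 to 178172704, plus strand). Their transcripts were 93.6% identical over 2916 aligned bases, and 727 of 2900 windows of 50 bases of Catspere1 (25.1%) occurred in Catspere2. The coding stretch of 30 bases in which they differed most is shown, with the 12 differing bases in capitals, since only reads over such bases can be assigned to one of them:
Catspere1: AtGctgacAtAtcccatgACCatAAtTtCT
Catspere2: TtActgacCtTtcccatgGAGatTGtGtTG
The stretch covers bases 718 to 747 of the Catspere1 transcript and 799 to 828 of the Catspere2 transcript.

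No read of Catspere1 was counted in WT (0 and 0), against 41 and 85 in the het libraries (4.27 and 7.94 CPM). The UTRmut libraries had 52 and 74 counts (4.86 and 6.44 CPM), inside the het range. Taking 3 counts as the floor of each WT library (0.289 and 0.259 CPM), Catspere1 was at least 22.3-fold higher in het, at least 14.8-fold in females and at least 30.6-fold in males (edgeR, Benjamini-Hochberg adjusted p = 0.00125). It passed in each of the 15 alternatives that could be run for it (adjusted p 4.45e-26 to 0.048).

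Catspere2 had 7.23 and 7.77 CPM in WT against 16.4 and 25.4 in het, with 18.9 and 23.1 in UTRmut. The lowest of the het and UTRmut libraries was above the highest WT library. It rose 2.76-fold in het (log2 fold 1.47, SE 0.17; edgeR, Benjamini-Hochberg adjusted p = 0.0132). The call was lost without the block (adjusted p = 0.0741 on 6 libraries and 0.102 on 4), without het replicate 1 (0.0953) and without het replicate 2 (1; over 16 alternatives 4.94e-13 to 1). Gm8010, an unprocessed pseudogene inside the span of Catspere2, was picked with its values known. Its counts were 4 and 3 (WT) and 9 and 18 (het), at a log2 fold of 2.0 (SE 0.60), and it did not pass. Of the flanking genes, picked for their position, Adss, next to Catspere1, had a log2 fold of -0.24 (SE 0.10) and Desi2, next to Catspere2, -0.04 (SE 0.11).

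**Figure D2:**
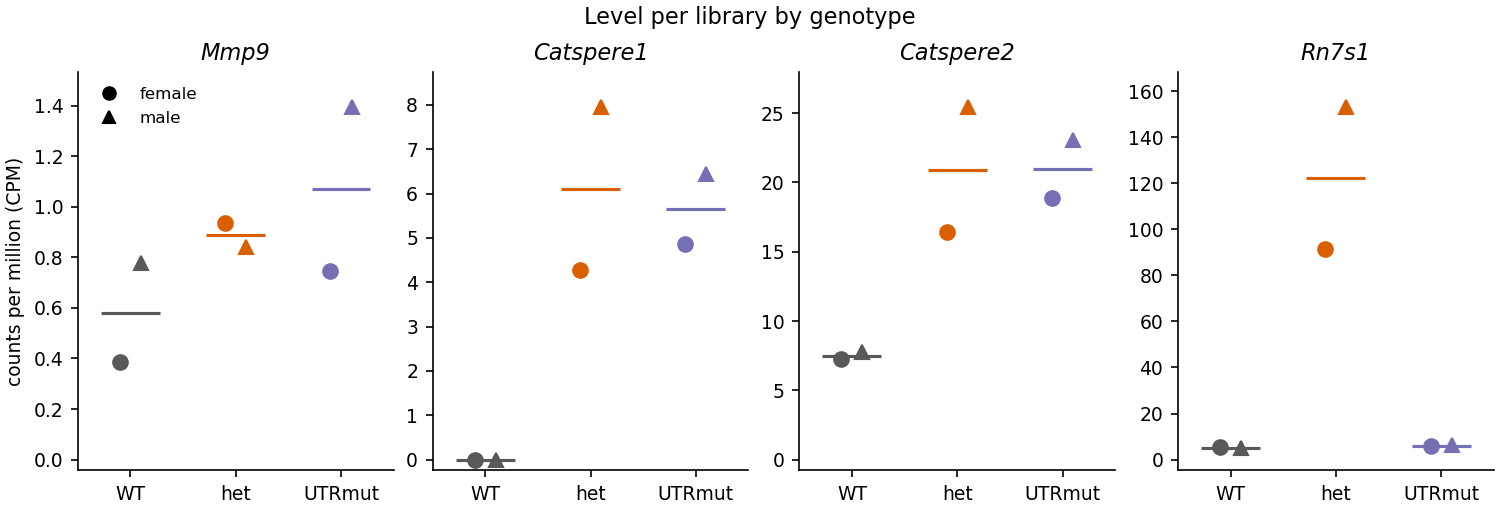
Level in CPM (vertical axes, each from 0) of Mmp9 and of the 3 genes that passed, by genotype; circles are females, triangles males and lines the mean of 2 libraries. Catspere1 and Catspere2 were higher in het and in UTRmut than in WT, and Rn7s1 was high in the 2 het libraries only, at 91.6 and 153 CPM.

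Among the genes that did not pass, 9 were named by smallest p on the higher side. The rule took only genes with a mean of at least 1 CPM and both het libraries above both WT libraries. The 9 included 2 activity-regulated transcription factors. Fos had 100 and 101 CPM in WT against 130 and 159 in het, with 141 and 190 in UTRmut (log2 fold 0.52, SE 0.11; edgeR, Benjamini-Hochberg adjusted p = 0.814, over 16 alternatives 5.22e-08 to 1). The 2 WT libraries were nearly equal for Fos, and each other library was higher. Egr2 had 37.9 and 58.6 CPM in WT against 69.4 and 74.9 in het (log2 fold 0.61, SE 0.12). Apod, a lipid-binding lipocalin of oligodendrocytes and perivascular cells, had 45.5 and 48.1 CPM in WT against 63.8 and 79.5 in het (log2 fold 0.61, SE 0.13). Slc7a11, the cystine/glutamate exchanger, had 99.4 and 85.2 CPM in WT against 121 and 126 in het (log2 fold 0.42, SE 0.10). For all 4 both UTRmut libraries were also above both WT libraries, the same WT libraries on which the genes were chosen.

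Sertad1, a transcriptional cofactor, had 14.4 and 22.2 CPM in WT against 24.9 and 29.1 in het (log2 fold 0.57, SE 0.14). Counts of Pttg1, securin, were 1 and 2 (WT), 2 and 44 (het) and 1 and 52 (UTRmut). Its fitted log2 fold was 3.90 (SE 0.74), with a log2 difference of 0.48 between the females and 3.58 between the males. Without WT replicate 2, which leaves no WT male beside the high het and UTRmut males, the fold was 0.53, the lowest over its 13 alternatives, and without WT replicate 1 it was 4.52 and passed (adjusted p = 4.15e-06, edgeR).

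On the lower side the smallest p belonged to Scoc, a short coiled-coil protein of the Golgi and autophagy, with 66.2 and 49.7 CPM in WT against 34.9 and 35.2 in het. The UTRmut libraries, at 48.9 and 48.8 CPM, lay between. Its log2 fold was -0.71 (SE 0.13; edgeR, Benjamini-Hochberg adjusted p = 0.432, over 16 alternatives 2.01e-09 to 1). Clgn, calmegin, a chaperone of the endoplasmic reticulum known from testis, ends next to the end of Scoc on the other strand of chromosome 8 (83389867 to 83428552, and Scoc from 83430084 to 83458391). It had 11.3 and 7.17 CPM in WT against 4.48 and 4.67 in het (log2 fold -0.98, SE 0.24). Both genes were named with het and WT libraries apart, which by itself makes them lower in both sexes. Of the other 14 tested genes within 500 kb, 1 had an unadjusted p under 0.05 (edgeR), Gipc1, named for that, at a log2 fold of 0.39 (SE 0.10). The share with such a p over all genes was 2.77%.

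Tes3-ps had 2.41 and 2.07 CPM in WT against 0.416 and 0.187 in het, or 25 and 24 counts against 4 and 2 (log2 fold -2.90, SE 0.59), with 13 and 4 counts in UTRmut. Itga4, the alpha 4 integrin subunit, had 42.3 and 37.6 CPM in WT against 25.7 and 29.3 in het (log2 fold -0.53, SE 0.12). Brd9, a subunit of a chromatin remodelling complex, had 61.3 and 64.0 CPM in WT against 45.5 and 49.4 in het (log2 fold -0.40, SE 0.10). For all 3 the UTRmut libraries were below both WT libraries, the same WT libraries on which the genes were chosen. The other genes named by rank on this side, Gm35161, Kcng2, Srd5a1, Tmem245, Plin4, Pcdhgb6 and Trim11, had log2 folds from -1.37 (Kcng2, a modulatory potassium channel subunit) to -0.30 (Tmem245). None of them passed.

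Gm37176, first by p among the genes on the higher side that did not pass, is an unspliced transcript model of unknown coding status near Satb1 on chromosome 17 (51859167 to 51863217). It had 3.76 and 2.25 CPM in WT against 8.74 and 8.31 in het, with 1.59 and 1.65 in UTRmut (log2 fold 1.53, SE 0.27; edgeR, Benjamini-Hochberg adjusted p = 0.432, over 15 alternatives 2.10e-04 to 1). The het libraries, above WT by the rule that named the gene, were also above the UTRmut libraries, which lay below WT. Its neighbours Gm37266 and Gm37593, named after their values were seen, had log2 folds of 1.25 (SE 0.33) and 0.88 (SE 0.25). Of the 9 models of this class tested around Satb1, 8 had a positive fold, against 49.1% of all genes. Satb1 itself, a chromatin organiser of cortical interneurons, had 209 and 208 CPM in WT against 200 and 178 in het (log2 fold -0.14, SE 0.09). The models upstream of Satb1 lie on the opposite strand, and whether counting used strand is not given in the sources used here.

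**Figure D3:**
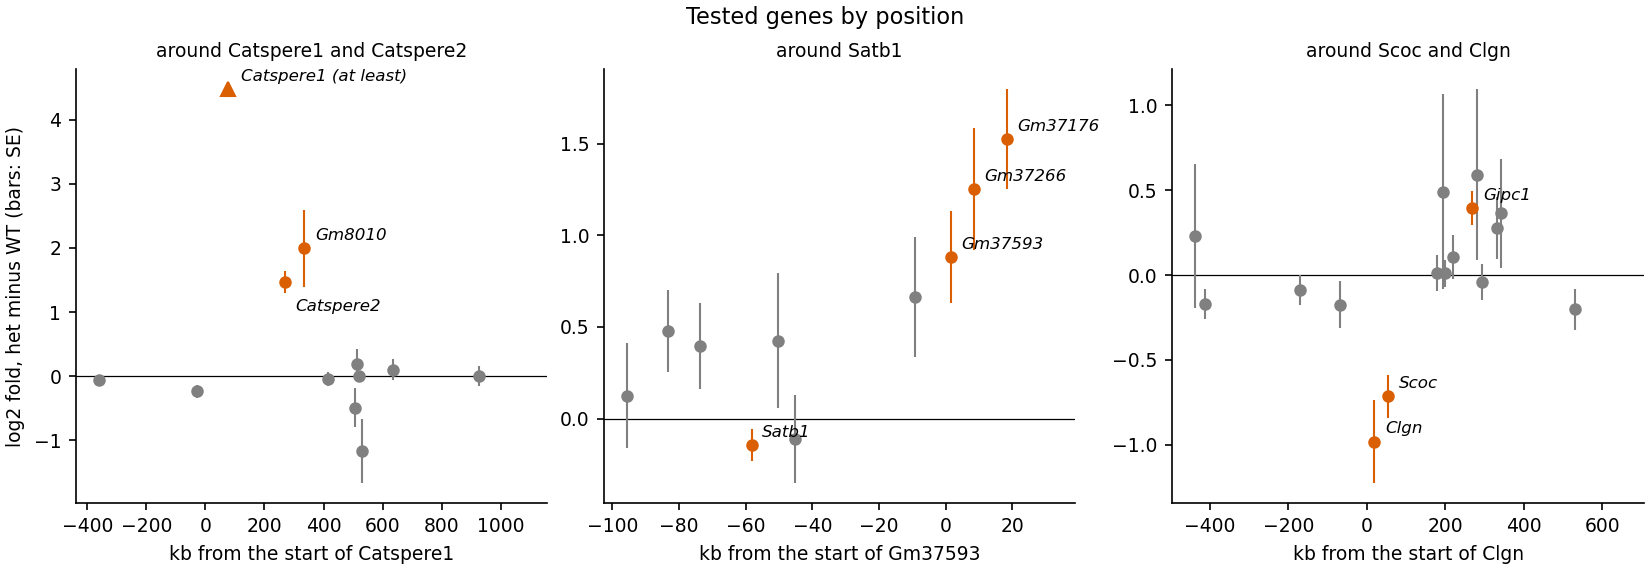
Log2 fold of het against WT (vertical axes; bars are SE) of tested genes by distance in kb around Catspere1 and Catspere2, Satb1, and Scoc and Clgn, with the labelled genes in orange. The triangle for Catspere1 is a lower bound from the floor of 3 counts. Catspere1, Gm8010 and Catspere2 are the highest points of the first panel, Scoc and Clgn the lowest of the third, and around Satb1 the models are mostly above 0, with Gm37176 highest at 1.53.

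2 other loci were read gene by gene. Dbndd2 lies within 500 kb of Mmp9 on chromosome 2 (164486106 to 164493319). It had 40.2 and 34.7 CPM in WT against 50.5 and 53.4 in het, with 52.0 and 57.6 in UTRmut (log2 fold 0.47, SE 0.12). Ncoa5, between 165000357 and 165034867 and picked with its values known, had 42.0 and 40.8 CPM in WT against 49.4 and 48.7 in het (log2 fold 0.25, SE 0.11). These were 2 of 22 tested neighbours of Mmp9 within 500 kb with an unadjusted p under 0.05 (edgeR), against 2.77% of all genes. Of the 22, 7 had a positive fold, against 49.1% of all genes. Within 1000 kb 2 of 31 had such a p and 12 a positive fold. Neither Dbndd2 nor Ncoa5 passed.

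Mirg is a host transcript of the maternally expressed microRNA cluster between Meg3 and Mir409 on chromosome 12. It had 62.1 and 59.1 CPM in WT against 73.6 and 89.0 in het, with 58.5 and 65.3 in UTRmut (log2 fold 0.42, SE 0.11). Of 44 tested genes from Meg3 to Mir409, 32 had a positive fold, with a median of 0.23 (0.10 in females and 0.38 in males), and 0 passed (3 at an unadjusted p under 0.05, edgeR). Over all genes 49.1% had a positive fold and 2.77% such a p. 36 of the 44 were microRNA genes, at a mean of only 0.763 to 4.08 CPM. In a library of total RNA such counts can be reads of the host transcript, and the genes are then not independent of Mirg.

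Gene lists were read as counts of positive folds and medians, beside 49.1% positive folds and a median log2 fold of -0.00 over all genes tested. Of the 657 listed genes that were tested only Rn7s1 passed. The median kept its sign in every alternative for 12 of the 37 lists: metalloproteases, immediate-early factors, presynaptic release, upper-layer neurons, astrocytes, meninges, amino acid response, ribosomal proteins, nuclear respiratory chain, histones, interferon and clock. The other medians turned in at least 1 alternative, mostly in a fit without 1 of the 4 libraries. Among 20 tested metalloproteases, inhibitors and plasminogen activators 12 had a positive fold, at a median of 0.08. Plat, tissue plasminogen activator, an upstream protease of this system, had 40.2 and 41.9 CPM in WT against 51.0 and 49.7 in het (log2 fold 0.29, SE 0.10). Mmp2, the gelatinase related to MMP-9, had 1.64 and 1.81 CPM in WT against 1.98 and 2.99 in het (log2 fold 0.52, SE 0.39). Serpine2, an inhibitor of serine proteases, had -0.15 (SE 0.10). Single libraries weighed on such values: of the 107 tested genes described by name, 76 had a fold that turned or moved by over 1.5 times when 1 het or WT library was left out.

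Genes for proteins reported to be cut by MMP-9 showed 11 of 20 positive folds and a median of 0.01. Sdc3, the proteoglycan syndecan-3, had 130 and 138 CPM in WT against 115 and 111 in het (log2 fold -0.24, SE 0.09). Bcan, brevican, had 152 and 161 CPM in WT against 163 and 186 in het (0.15, SE 0.10), and Lama1, a laminin chain, 5.01 and 8.38 in WT against 9.99 and 11.4 in het (0.67, SE 0.34). For Sdc3 the UTRmut libraries (123 and 120 CPM) lay between het and WT. The perineuronal net list had 9 of 17 positive folds and a median of 0.07. In it Csgalnact1, which starts chondroitin sulfate chains, had 0.26 (SE 0.13) and Has3, a hyaluronan synthase, -0.45 (SE 0.31). In the list of RNA-binding proteins of local translation, 6 of 22 folds were positive, with a median of -0.03. Its smallest p was that of Cyfip2, a partner of the fragile X protein, at -0.11 (SE 0.07).

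**Figure D4:**
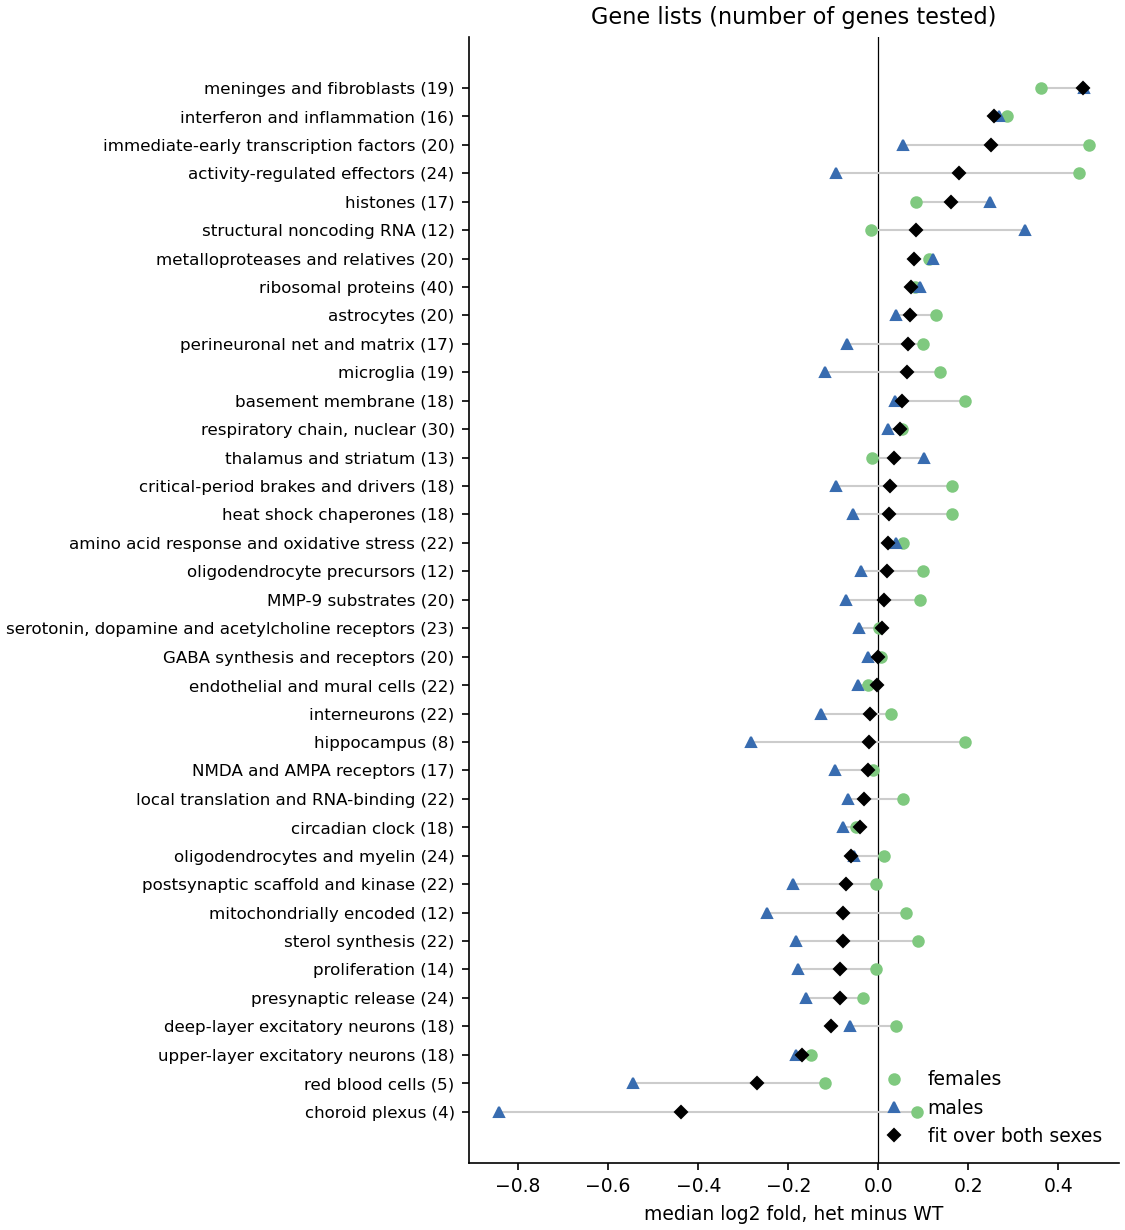
Median log2 fold of het against WT (horizontal axis) of each gene list, with the number of genes tested; diamonds are the fit over both sexes, circles females and triangles males. Medians ran from 0.45 for meninges and fibroblasts to -0.44 for choroid plexus, and for several lists the sexes fell on opposite sides of 0.

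Immediate-early transcription factors, which neurons switch on within minutes of activity, had 19 of 20 positive folds and a median of 0.25. By sex the median was 0.47 in females and 0.06 in males. Besides Fos and Egr2, Nr4a2 had 20.1 and 33.4 CPM in WT against 31.7 and 42.6 in het (log2 fold 0.49, SE 0.13), and Nr4a3 63.2 and 92.8 in WT against 100.2 and 104 in het (0.40, SE 0.14). WT replicate 1 was the lowest library: the list summed to 1219 CPM there, against 1641 in WT replicate 2, 1704 and 1678 in het, with 1875 and 1959 in UTRmut. Het replicates and WT replicate 2 thus lay close together. Without WT replicate 1 the median was 0.13 and without het replicate 1 it was 0.11.

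The activity-regulated effectors, which act at synapses or in signalling, were again lowest in WT replicate 1. There were 21 of 24 positive folds and a median of 0.18, at 0.45 in females and -0.09 in males, and without WT replicate 1 the median turned to -0.12. They summed to 3390 CPM in WT replicate 1, 4930 in WT replicate 2 and 4745 and 4821 in het. Rgs2, a regulator of G protein signalling, had 47.5 and 60.7 CPM in WT against 63.0 and 70.1 in het (0.30, SE 0.11). Gadd45b had 0.45 (SE 0.18). Dusp1, a phosphatase of MAP kinases, was on the other side, at 60.9 and 50.3 CPM in WT against 42.8 and 41.4 in het (-0.40, SE 0.14).

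**Figure D5:**
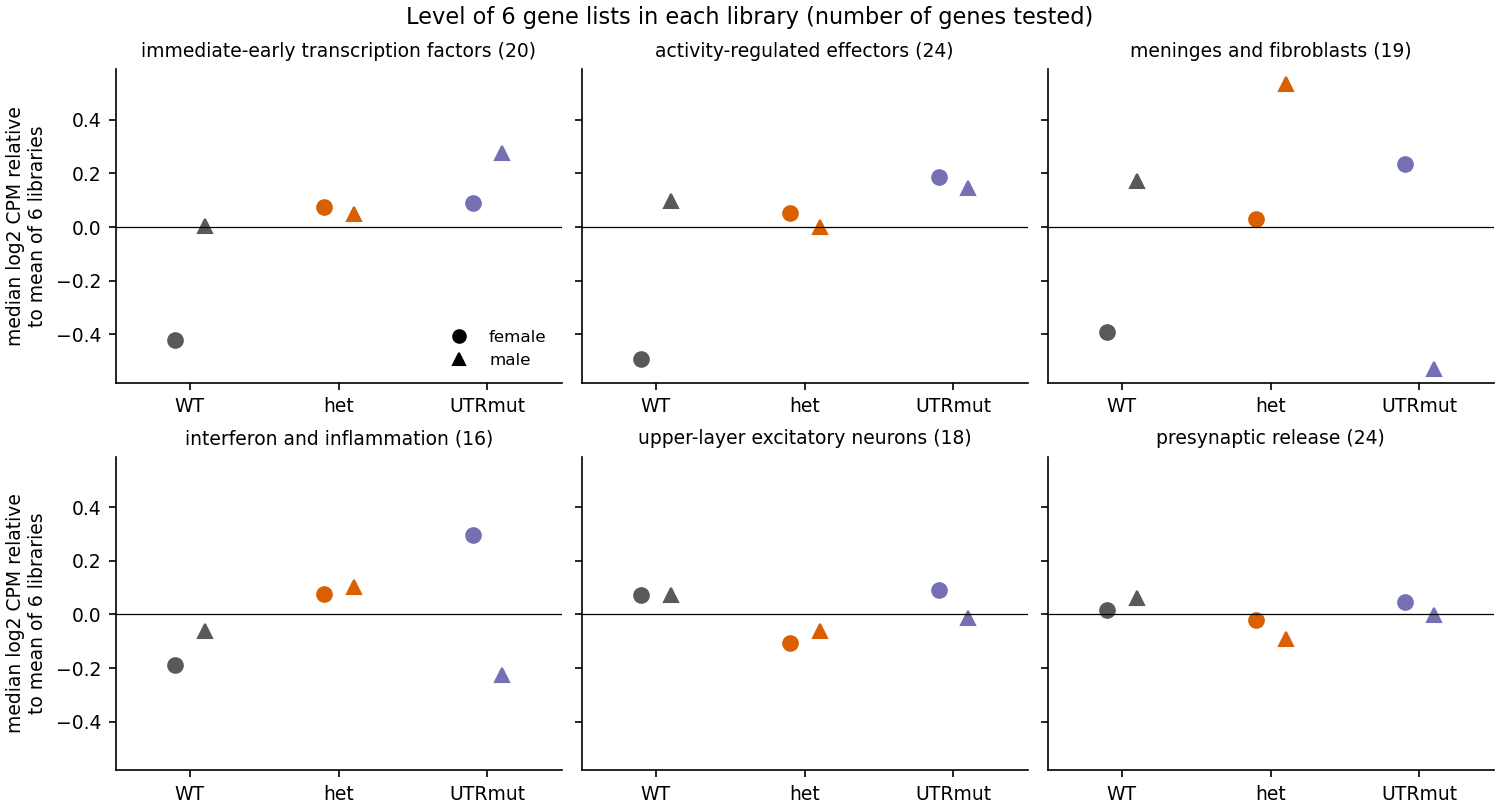
Median log2 CPM of the genes of 6 lists in each library, relative to the mean of the 6 libraries (vertical axis), by genotype; circles are females and triangles males. WT replicate 1 is the low point of both activity lists (summed levels of 1219 and 3390 CPM), het replicate 2 the high point of the meninges list (853 CPM), and both het libraries lie below both WT libraries for the upper-layer and presynaptic lists.

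Presynaptic release genes had 1 positive fold of 24, with a median of -0.09 (-0.03 in females and -0.16 in males). Of these 24 genes 9 had both het libraries below both WT libraries, against 13.6% of all genes. The list summed to 12382.6 and 13038.8 CPM in WT and 12179.1 and 11757.5 in het, with 12823.7 and 12595.8 in UTRmut. Syt2, a fast calcium sensor of release, had 43.2 and 39.4 CPM in WT against 37.6 and 29.0 in het (log2 fold -0.32, SE 0.11). Syn1, synapsin 1, had 202 and 220 CPM in WT against 199 and 155 in het (-0.27, SE 0.12), so its het male was the low library. Unc13a and Rims1, which prime vesicles at the active zone, had -0.21 (SE 0.11) and -0.16 (SE 0.08). Without WT replicate 2 the fold of Unc13a was -0.01, and without WT replicate 1 -0.40. The median kept its sign in all 16 alternatives, from -0.15 to -0.03.

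Postsynaptic scaffold genes had 5 of 22 positive folds and a median of -0.07, and NMDA and AMPA receptor genes 6 of 17 and -0.02; both turned positive without WT replicate 2, the latter also without het replicate 2. Nlgn2, the adhesion protein of inhibitory synapses, had a log2 fold of -0.25 (SE 0.12), which was -0.003 without WT replicate 2 and -0.48 without WT replicate 1. Dlg1, SAP97, had 0.15 (SE 0.08). Grin2b, an NMDA receptor subunit, had -0.11 (SE 0.07). GABA synthesis and receptor genes had 10 of 20 positive folds and a median of 0.00, with Gabrg3 at -0.24 (SE 0.10) and Gabra2 at 0.19 (SE 0.11). For 7 of these 20 both het libraries were below both WT libraries (35%, against 13.6% of all genes). For 2 they were above (10%, against 13.4%). In the list of serotonin, dopamine and acetylcholine receptors 12 of 23 were positive, with a median of 0.01. There Htr2c, the 5-HT2C receptor, had 17.5 and 19.3 CPM in WT against 15.2 and 9.53 in het, with 7.0 and 8.88 in UTRmut (-0.59, SE 0.22), and Htr4 had -0.66 (SE 0.30).

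Upper-layer neuron markers had 2 positive folds of 18 and a median of -0.17 (-0.15 in females and -0.18 in males). For 8 of the 18 both het libraries were below both WT libraries, against 13.6% of all genes. The list summed to 1614 and 1697 CPM in WT and 1482 and 1518 in het, with 1786 and 1618 in UTRmut. Scnn1a, a marker of layer 4, had 2.80 and 4.23 CPM in WT against 1.87 and 1.68 in het (log2 fold -0.98, SE 0.34). The fold was -0.19 (SE 0.09) for Rasgrf2 and -0.17 (SE 0.08) for Lmo4, both on the log2 scale. The median stayed between -0.19 and -0.11 in the 16 alternatives. In tissue such as this, fewer cells of a type and less RNA per cell cannot be told apart.

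Deep-layer markers had 7 of 18 positive folds and a median of -0.11, which turned to 0.04 without het replicate 2. Syt6, a marker of layer 6, had 17.6 and 23.2 CPM in WT against 25.0 and 27.0 in het (log2 fold 0.35, SE 0.13). Etv1, of layer 5, had 110 and 119 CPM in WT against 100.1 and 97.8 in het (-0.21, SE 0.09). Interneuron markers had 10 of 22 positive folds and a median of -0.02. Kcnc1, a potassium channel of fast-spiking cells, had 105 and 107 CPM in WT against 92.6 and 81.4 in het (-0.29, SE 0.11), and Cort, cortistatin, -0.56 (SE 0.24). Both are among 6 interneuron markers with both het libraries below both WT libraries (27.3%, against 13.6% of all genes). For 2 other interneuron markers both het libraries were above (9.09%, against 13.4%). Brakes and drivers of the visual critical period had 10 of 18 positive folds and a median of 0.03.

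Astrocyte markers had 16 positive folds of 20 and a median of 0.07, positive in all 16 alternatives (0.04 to 0.14). Apoe, which carries lipids, had 927 and 895 CPM in WT against 1069 and 1098 in het, with 998 and 1063 in UTRmut (log2 fold 0.25, SE 0.07). Gfap, an intermediate filament, had 70.7 and 90.3 CPM in WT against 109 and 91.0 in het (0.31, SE 0.13), and Slc1a3, a glutamate transporter, 0.15 (SE 0.07). Oligodendrocyte markers had 7 of 24 positive folds and a median of -0.06, with Mog, a myelin surface protein, at -0.26 (SE 0.12). Apod, above, is in this list and was on the other side. Oligodendrocyte precursor markers had 7 of 12 and 0.02, and microglial markers 12 of 19 and 0.06.

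Markers of meninges and fibroblasts had the highest median of the lists, 0.45, with 17 of 19 positive folds (0.36 in females and 0.46 in males). Slc13a4, a sulfate transporter of the meninges, had 7.81 and 8.46 CPM in WT against 10.9 and 13.6 in het (log2 fold 0.60, SE 0.29). Dcn, decorin, had 5.21 and 7.95 CPM in WT against 8.95 and 12.1 in het (0.68, SE 0.33). Cdh1, E-cadherin, had 3.28 and 3.02 CPM in WT against 3.64 and 7.29 in het (0.78, SE 0.32), and Slc22a6, an organic anion transporter, 0.68 (SE 0.32). The list summed to 410 and 520 CPM in WT and 602 and 853 in het, with 680 and 374 in UTRmut, and 66.2% to 78.0% of each sum came from Ptgds. With Ptgds left out, WT libraries summed to 101 and 176 CPM, het libraries to 132 and 193 and UTRmut libraries to 154 and 106, so het replicate 2 was still the highest library, and WT replicate 2 lay above het replicate 1. Without het replicate 2 the median was 0.05 and without WT replicate 1 it was 0.23.

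Ptgds, prostaglandin D synthase of the meninges and a member of that list, was picked with its values known. It had 309 and 344 CPM in WT against 469 and 660 in het, with 525 and 269 in UTRmut (log2 fold 0.80, SE 0.49). It did not pass in the fit as reported. It passed in 5 of 16 alternatives, among them the 4 het and WT libraries with the block (edgeR or DESeq2, Benjamini-Hochberg). Fits with 1 library left out count among the 16, over which its log2 fold ran from 0.30 to 1.19. Basement membrane genes had 10 of 18 positive folds and a median of 0.05, with Lamb2, a laminin chain of pial and vascular membranes, at 23.0 and 26.9 CPM in WT against 29.1 and 36.5 in het (0.39, SE 0.15). Endothelial and mural markers had 11 of 22 and a median of -0.00. In them Vtn, vitronectin of pericytes, had 28.1 and 28.9 CPM in WT against 39.1 and 47.9 in het (0.61, SE 0.18). Tagln, of smooth muscle, had 1.0 (SE 0.40), and Slco1a4, a transporter of the blood-brain barrier, -0.32 (SE 0.15). Lamb2, Vtn and Tagln were higher in het, while Slco1a4 was lower. In the endothelial and mural list 4 genes had both het libraries above both WT libraries (18.2%, against 13.4% of all genes). For 3 genes of that list both het libraries were below (13.6%, against 13.6% of all genes). A part of meningeal tissue in these values was not tested.

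Interferon and inflammation genes had 14 of 16 positive folds and a median of 0.26 (0.28 in females and 0.27 in males), positive in all 16 alternatives (0.14 to 0.43). Gene by gene the sexes agreed less: 6 of the 16 were higher in both sexes and 2 lower in both. Both het libraries were above both WT libraries for 6 genes (37.5%, against 13.4% of all genes). They were below for 1 gene (6.25%, against 13.6%). Ifitm3, an antiviral membrane protein also made by vascular and meningeal cells, had 2.31 and 1.90 CPM in WT against 4.58 and 3.27 in het, with 3.36 and 2.26 in UTRmut (log2 fold 0.88, SE 0.30). H2-K1, a class I histocompatibility chain, had 0.482 and 1.12 CPM in WT against 1.77 and 2.34 in het (1.32, SE 0.70); it shares sequence with related class I genes, so its counts are uncertain. The list summed to 124 and 146 CPM in WT against 147 and 151 in het, so the summed level of WT replicate 2 was nearly that of the het libraries.

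Ribosomal protein genes had 36 positive folds of 40 at a small median of 0.07, and nuclear genes of the respiratory chain 23 of 30 at 0.05. Both het libraries were above both WT libraries for 10% and 13.3% of them, against 13.4% of all genes. The ribosomal list summed to 4570 and 5071 CPM in WT and 4760 and 5392 in het. The respiratory list summed to 4522 and 5056 in WT and 4655 and 5133 in het, so in both lists WT replicate 2 lay above het replicate 1. Rps15 had 139 and 162 CPM in WT against 161 and 181 in het (log2 fold 0.19, SE 0.08), and Ndufa4 134 and 149 in WT against 152 and 167 in het (0.17, SE 0.08). Both medians were positive in all 16 alternatives. The median of mitochondrially encoded genes went the other way, at -0.08 with 4 of 12 positive folds. The sum of that list did not: it was 57356.3 and 62828.5 CPM in WT against 66416 and 59611.2 in het. mt-Nd1, a subunit of complex I, had 1126 and 1123 CPM in WT against 1039 and 953 in het (-0.18, SE 0.07), mt-Cytb, of complex III, -0.17 (SE 0.08) and mt-Nd6 -0.29 (SE 0.12). Without WT replicate 2 that median was 0.07.

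Histone genes had 11 of 17 positive folds and a median of 0.16, with Hist1h4d at 68.5 and 64.4 CPM in WT against 71.7 and 91.4 in het (log2 fold 0.28, SE 0.12) and Hist1h1e at 0.32 (SE 0.14). Structural noncoding RNAs had 9 of 12 and a median of 0.08. Sterol synthesis genes had 6 of 22 positive folds and a median of -0.08. Mvk, mevalonate kinase, had 12.7 and 13.6 CPM in WT against 7.29 and 10.8 in het (-0.54, SE 0.19), while Srebf1, a regulator of lipid synthesis, had 0.29 (SE 0.13). Clock genes had 7 of 18 and a median of -0.04, with Bhlhe40 at 0.22 (SE 0.09) and Dbp, an output factor of the clock, at -0.29 (SE 0.13). Proliferation genes had 5 of 14 and -0.08, with Dcx, of young neurons, at -0.33 (SE 0.14; -0.04 without WT replicate 1 and -0.59 without WT replicate 2). Amino acid response genes had 12 of 22 and 0.02, with Ddit3 at 0.42 (SE 0.19) and Hmox1 at 0.59 (SE 0.32). Heat shock genes had 11 of 18 and 0.02.

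Lists for neighbouring tissue gave no common direction. Hippocampal markers had 4 of 8 positive folds and a median of -0.02, and markers of thalamus and striatum 7 of 13 and 0.04. Choroid plexus markers had 1 of 4 and -0.44, and red blood cell genes 0 of 5 and -0.27, the latter with Alas2, the first enzyme of heme synthesis in red cells, at 7.62 and 9.76 CPM in WT against 6.45 and 6.45 in het (log2 fold -0.44, SE 0.26). Both turned positive without WT replicate 2, the library with the highest sum of each of these 2 lists.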

How the data were processed

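The deposited values are the authors' raw counts of reads by Ensembl gene, 1 column a library, without scaling. Per the labels' protocols, RNA came from a phenol/chloroform extraction and libraries from a TruSeq Stranded Total RNA kit. The submitters' processing notes name HTSeq 0.6.0, GATK 4.2.3.0, HISAT2 and Trimmomatic 0.39 with the build GRCm38, and no role for each; the strand setting of the counting is not given in the sources used here. Total RNA holds unspliced and non-polyadenylated RNA, which counts per gene then include.

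From these deposited counts, genes were filtered with filterByExpr (minimum count 10, total 15; 16119 of 55487 kept), scaled by trimmed mean of M-values and tested in R 4.3.3 by edgeR 4.0.16 (quasi-likelihood, robust, sex as a block, Benjamini-Hochberg over all genes tested, passing under 0.05). All 6 libraries entered the fit (2 residual degrees of freedom); the contrast was het minus WT. SE is the absolute log2 fold over the square root of F. DESeq2 1.42.0 and leaving out libraries were among 16 alternatives. The script was tested on simulated data. Symbols and classes came from GENCODE (55227 identifiers matched; the other 260 held 0.0162% of counts). A count of 0 allows up to 3 counts, or 0.259 to 0.312 CPM, counting error only.

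The members and lists were chosen with earlier results of these data known. Named were Mmp9, Timp1 to Timp4 and Mmp14, each gene that passed, genes by smallest p up to 12 a direction (mean of at least 1 CPM, het and WT apart), and up to 4 a list; others are said to be named after their values were seen. Some members of these lists are not reported here.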

Additional observations from a re-analysis of the deposited data

Results flagged for a closer look

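Several values differed in direction between the sexes, each with 1 library a genotype and sex, so that the difference was not tested. Ttr had a log2 difference of het minus WT of 1.27 in females and -6.50 in males, where the WT male held 42.1 CPM. Rn7s2 had -0.66 in females and 0.52 in males. Adam18, a testis protein of the ADAM family with counts of 34 and 14 (WT) and 0 and 16 (het), had -4.22 in females and 0.27 in males. Rpl15-ps2, a processed pseudogene with counts of 0 and 68 (WT), 1 and 0 (het), and then 43 and 52 (UTRmut), had 0.64 in females and -5.02 in males. The last 2 were named after their values were seen. The median had opposite signs in the sexes for 19 of the 37 lists. Of those with at least 5 genes tested, 2 had a median of at least 0.1 in size in each sex: microglial markers, at 0.14 in females and -0.12 in males, and hippocampal markers, at 0.19 and -0.28. With a smaller value in 1 sex, activity-regulated effectors had 0.45 and -0.09, mitochondrially encoded genes 0.06 and -0.25, and sterol synthesis genes 0.09 and -0.18. The 4 choroid plexus markers tested had 0.09 and -0.84.

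The UTRmut libraries, which are outside the contrast, held the Catspere genes above the WT level. Catspere1 had 4.86 and 6.44 CPM there, against 0 counts in WT. Catspere2 had 18.9 and 23.1 CPM.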

How the results depend on the processing

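Without the replicate block (sex) 2 genes were higher on 6 libraries and 1 on the 4 het and WT libraries, Catspere1, and 0 lower. Labels do not tie the numbers to a litter; deviations of same-numbered WT and het libraries correlated at 0.22 over autosomal genes, those of WT and UTRmut at -0.03 and of het and UTRmut at 0.06. Without a filter on low counts 14 genes were higher and 6 lower, and with protein-coding genes only 1 was higher. Leaving out 1 library gave 3 to 166 higher and 0 to 208 lower; the extremes were the fits without a WT library, and 5 were higher and 1 lower without either UTRmut library. Other scalings, a stricter filter and DESeq2 gave 3 and 0. Leaving out 1 library turned the direction of 7 named genes, whose log2 folds then ran from -0.34 (without WT replicate 1) to 1.16 for Timp1, -0.096 to 0.070 (without het replicate 2) for Timp2, -0.063 (without het replicate 2; -0.03 without WT replicate 1) to 0.36 for Timp3, -0.19 to 0.16 (without WT replicate 1; 0.094 without het replicate 2) for Timp4, -7.03 to 0.076 (without het replicate 2) for Ttr, -0.60 to 0.47 (without WT replicate 1; 0.26 without het replicate 1) for Rn7s2 and -8.06 to 0.18 (without het replicate 1) for Adam18; an 8th, Rpl15-ps2, ran from -8.42 to 2.31 (without WT replicate 2). The cause was not tested. Depth limited what could be seen of Mmp9 and Timp1.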

Other observations

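A few genes differed widely between libraries of 1 genotype. Eno1b, an enolase copy on chromosome 18, had counts of 1 and 3 (WT), 1 and 273 (het), then 2 and 0 (UTRmut). Most of its counts fell in the het male. The filter on low counts left it out of the contrast as reported. The fit without that filter called it (log2 fold 6.01, SE 0.61; edgeR, Benjamini-Hochberg adjusted p = 8.40e-10), and so did 4 of the 5 fits with 1 library left out in which it was tested; without WT replicate 2 the adjusted p was 0.843. AA465934 had 1.45 and 2.07 CPM in WT, 2.39 and 8.03 in het, then 1.12 and 9.40 in UTRmut, so that, as for Pttg1, the het and UTRmut males were the high libraries. Gm7335, a processed pseudogene, had counts of 0 and 31 (WT), 54 and 67 (het), then 30 and 23 (UTRmut); the WT female was the library at 0 and both het libraries were the highest. These genes were picked for their values. AA465934 and Gm7335 were tested in the contrast as reported and did not pass.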
